A study of Caenorhabditis elegans with 6 samples.

Results

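The genes described here are the chitin synthases (chs), the chitin-binding protein gene cbd-1, the chitinases (cht) and the chitinase-like genes (chil) of Caenorhabditis elegans. They were taken by symbol, as all genes whose symbol starts with chs-, cbd-, cht- or chil-. The RefSeq gene table for WBcel235 holds 37 such genes, and 34 of them had a probe set that names a single gene, among 17118 genes on the array. These were 2 chs, 1 cbd, 6 cht and 25 chil genes. The genes chil-19 and chil-21 share 1 probe set and chil-25 is not analysed here. Each gene was followed by its brightest probe set over the 6 arrays. The labels do not give the array's genome build, so no coordinates are given.

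Chitin is a polymer of N-acetylglucosamine (GlcNAc). In C. elegans it is known from the eggshell and from the pharynx, where it is part of the lining that is replaced at each molt, while the body cuticle is built mainly of collagen. Chitin synthases make the polymer from UDP-GlcNAc, deacetylases modify it, and chitinases of glycosyl hydrolase family GH18 cut it. The chitinase-like proteins are relatives of the chitinases, and several chil genes are known to be induced in the epidermis when worms meet oomycetes.

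The study compared larvae of the wild-type strain N2 at the L2 stage in 2 groups of 3 arrays each. Synchronized L1 larvae ate HT115 bacteria that carried the vector L4440 with an insert against nhr-23, from the part of the gene that encodes the ligand-binding domain, or L4440 without an insert, from which the labels say short nonspecific double-stranded RNA is made. Both groups were kept for 21 hours at 20 C, and RNA came from whole larvae, so that fewer cells of a type and less RNA per cell cannot be told apart. Worms need the nuclear hormone receptor NHR-23 to molt, and the comparison asked which transcripts differed when it was targeted.

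Array medians lay between 5.12 and 5.18 on the deposited log2 scale. The brighter of both nhr-23 probe sets read 7.67, 7.47 and 7.52 in the arrays labelled nhr-23 RNAi and 8.27, 8.12 and 7.74 in the control arrays. The dimmer one went against the label, with 8.76, 9.61 and 8.76 in the RNAi-labelled arrays and 6.60, 6.56 and 5.80 in the control arrays. Which part of nhr-23 each reads is not known here, and the fed insert is itself a piece of that gene. Higher and lower below thus refer to the label on each array. Replicates 3 of both groups stood apart in molting genes, by a median of -1.40 log2 from the other RNAi-labelled arrays and -1.62 log2 from the other controls over 8 molting markers. These markers were also lower in 8 of 8 genes between the groups, with a median of -0.53 log2. None had an unadjusted limma p under 0.05, but 7 of the 8 did with the replicate number as a block, where their smallest adjusted p was 0.146. Over the 34 chitin genes the median of the same gap was -0.05 and -0.01 log2, with single genes going either way, among them cht-4 at -0.73, chil-8 at -0.48 and cbd-1 at -0.38 log2 in RNAi-labelled arrays and chil-22 at -0.52 log2 in controls. The 10 epidermis markers included bright ones, with means over the list of 7.29 to 7.81 in RNAi-labelled arrays and 7.61 to 7.92 in controls, and the 7 pharynx markers had 7.02 to 7.81 and 7.63 to 7.89.

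Most of the chitin genes read dim. A gene was called dim when the mean of its probe set over the 6 arrays was below the median of all 22548 probe sets, 5.16, and 26 of the 34 were dim, against 50.2% of all genes. The 8 that were not dim were cbd-1, cht-1, cht-4, cht-5, cht-6, chil-10, chil-13 and chil-22. A second yardstick came from 36 sperm and yolk genes, which are known to be expressed only after the L2 stage. Their 95th percentile was 5.87. Of the 34 only cbd-1, chil-10 and chil-22 reached it, against 41.2% of all genes. By their brightest probe sets some other eggshell genes also lay above 5.87, among them cpg-1 (mean 7.43) and perm-4 (7.22). Others such as cpg-3 (5.36) lay below it. Reaching 5.87 thus does not show that a gene is in use at the L2 stage. No detection calls were used, so a dim reading does not show that a gene is silent, and brightness does not rank genes by transcript number.

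**Figure D1:**
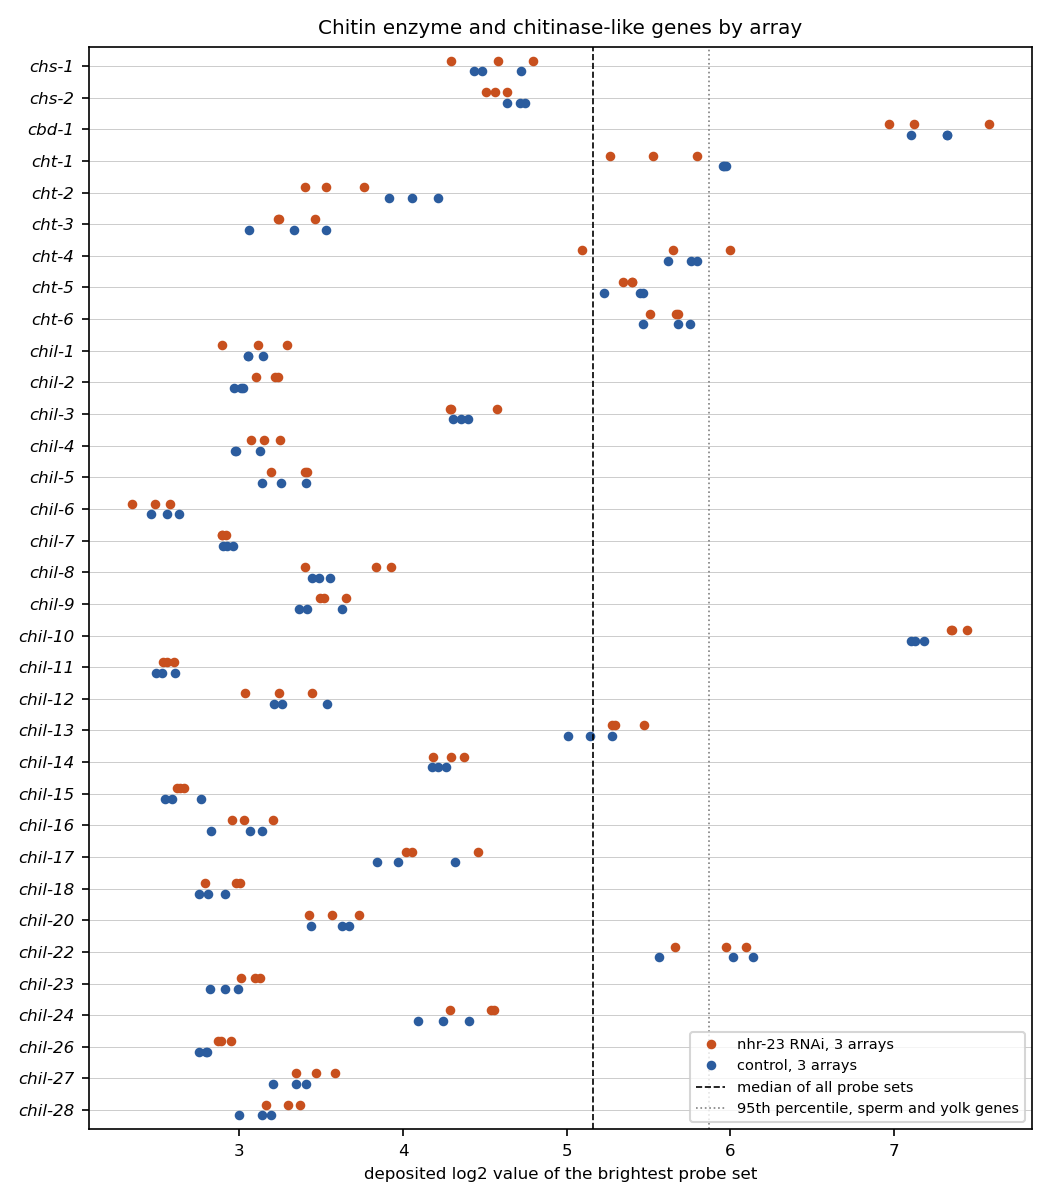
Deposited log2 value of the brightest probe set of each of the 34 genes on the x axis, with a point for each of 3 nhr-23 RNAi arrays (orange, upper) and 3 control arrays (blue, lower). The dashed line is the median of all probe sets (5.16) and the dotted line the 95th percentile of sperm and yolk genes (5.87). Most chil genes lie left of both lines, and the points of cht-1 and cht-2 separate by group.

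None of the 34 genes passed the threshold. An adjusted limma p under 0.05 was reached by 0 of 34, where 0% of all probe sets passed, and the smallest adjusted p among the 34 was 0.993. With the replicate number as a block, 0.00887% of all probe sets passed and again 0 of the 34, with a smallest adjusted p of 0.562. The dimmer nhr-23 probe set was among those that passed. At an unadjusted limma p under 0.05 there were 4 genes, cht-1 and cht-2 lower and chil-2 and chil-10 higher in the RNAi-labelled arrays. That is 11.8% of the 34, against 3.62% of all genes, of which 2.16% were higher and 1.46% lower. With the replicate block 3 of the 34 remained at that level, cht-1, cht-2 and chil-10, against 5.9% of all genes. The groups did not overlap in 7 genes, or 20.6%, against 9.48% of all genes. These 7 were chs-2, cht-1 and cht-2 on the lower side and chil-2, chil-10, chil-23 and chil-26 on the higher side, where all genes had 2.99% and 6.49%. The enzymes that make or cut chitin and the chitinase-like genes thus lay on opposite sides where the groups separated, a description of 7 genes that no test across genes called.

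The supply of UDP-GlcNAc was read from 10 genes of a list of the hexosamine pathway and the glycolytic enzymes that feed it. None passed the test. There were 4 higher and 6 lower genes, and the list's median was -0.01 log2 against 0.02 log2 over all genes. The gene gfat-1, which encodes the aminotransferase that commits sugar to the pathway, averaged 8.32 ± 0.08 in RNAi-labelled arrays and 8.18 ± 0.28 in controls (SD, n = 3 each). The smallest p in the list belonged to C36A4.4, which encodes a UDP-GlcNAc pyrophosphorylase, at 8.62 ± 0.12 in RNAi-labelled arrays and 8.52 ± 0.03 in controls (SD, n = 3 each; limma unadjusted p = 0.276). The N-acetyltransferase gene gna-2, needed for the eggshell, had 5.67, 5.22 and 5.52 in RNAi-labelled arrays and 5.49, 5.28 and 5.15 in controls, and its groups overlapped.

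Both chitin synthase genes were dim. The synthase of the pharynx, encoded by chs-2, read 4.56, 4.63 and 4.51 in RNAi-labelled arrays, against 4.64, 4.71 and 4.75 in controls. All 3 RNAi-labelled arrays lay below all 3 controls, although the nearest values were 4.63 and 4.64. The log2 difference was -0.13 (95% interval -0.31 to 0.04, limma unadjusted p = 0.114), a step of 1.10-fold, and it was -0.08, -0.08 and -0.24 in the pairs of replicates 1, 2 and 3. By their brightest probe sets all 7 pharynx markers also read lower, their median being -0.23 log2, with none at an unadjusted limma p under 0.05. Their mean over the list was 7.73, 7.02 and 7.81 in RNAi-labelled arrays and 7.78, 7.89 and 7.63 in controls. RNAi replicate 2 was the lowest RNAi-labelled array for 5 of the 7, the muscle genes myo-1, myo-2, tnc-2, tni-4 and tnt-4, while it was the highest for chs-2. The brighter probe set of the transcription factor gene ceh-22 was lowest in RNAi replicate 3, as chs-2 was. It read 4.53, 4.37 and 4.23 in RNAi-labelled arrays and 4.504, 4.60 and 4.71 in controls (limma unadjusted p = 0.0604). The dimmer ceh-22 probe set was lowest in RNAi replicate 2 instead. It read 3.40, 3.10 and 3.32 in RNAi-labelled arrays and 3.52, 3.73 and 4.05 in controls, without overlap (log2 difference -0.49, limma unadjusted p = 0.0139). The part of the pharynx markers in the chs-2 difference was not tested.

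The eggshell synthase gene chs-1 read 4.29, 4.80 and 4.58 in RNAi-labelled arrays and 4.48, 4.43 and 4.72 in controls. The groups overlapped, with a log2 difference of 0.01 (95% interval -0.34 to 0.36). The gene cbd-1 encodes a chitin-binding protein of the vitelline layer, the outermost layer of the eggshell. Its brighter probe set read 7.13, 7.58 and 6.97 in RNAi-labelled arrays and 7.33, 7.11 and 7.33 in controls. RNAi replicate 2 was the highest of the 6 arrays and RNAi replicate 3 the lowest, so the spread in the RNAi-labelled group (SD 0.32) was wider than in controls (SD 0.13). The log2 difference was -0.03 (95% interval -0.42 to 0.36), with pair differences of -0.20, 0.47 and -0.36. A second cbd-1 probe set was dim, at 3.38 ± 0.14 in RNAi-labelled arrays and 3.44 ± 0.10 in controls (SD, n = 3 each).

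Of the chitin deacetylase list 2 genes were measured. The gene lgx-1 encodes a predicted polysaccharide deacetylase. Its brighter probe set read 4.93, 5.24 and 5.20 in RNAi-labelled arrays, against 5.32, 5.43 and 5.65 in controls, with no overlap. Its dimmer one read 5.08, 5.33 and 4.71 in RNAi-labelled arrays, against 5.61, 5.34 and 5.49 in controls, again with no overlap. Both probe sets were lower in all 3 pairs, although in the dimmer one the pair of replicates 2 differed by only -0.01 log2. The log2 differences were -0.34 (95% interval -0.63 to -0.05, limma unadjusted p = 0.0288) and -0.44 (95% interval -0.82 to -0.05, limma unadjusted p = 0.0332), and the adjusted p of both was 0.993. The other gene of the list, dac-1, is not known to encode a deacetylase, so lgx-1 alone stands for this step. The gene dac-1 averaged 5.27 ± 0.35 in RNAi-labelled arrays and 5.26 ± 0.51 in controls (SD, n = 3 each). Its log2 difference was 0.02, with a wide interval of -0.66 to 0.69.

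The chitinases cht-1 and cht-2 had the largest differences among the 34 genes. The brighter probe set of cht-1 read 5.26, 5.80 and 5.53 in RNAi-labelled arrays, against 5.96, 5.98 and 5.96 in controls. The RNAi-labelled arrays spread more widely (SD 0.27) than the nearly identical controls (SD 0.0094), and all lay below them. The log2 difference was -0.44 (95% interval -0.76 to -0.12), 1.35-fold lower, with a limma unadjusted p of 0.0149 and an adjusted p of 0.993. The pairs numbered 1, 2 and 3 gave -0.70, -0.18 and -0.43.

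The second cht-1 probe set gave nearly the same picture. It read 5.09, 5.18 and 4.97 in RNAi-labelled arrays, against 5.40, 5.40 and 5.52 in controls, and the groups did not overlap. Its log2 difference was -0.36 (95% interval -0.56 to -0.16, limma unadjusted p = 0.00395), with pair differences of -0.32, -0.22 and -0.55. The suffixes of both, _s_at and _x_at, mark probe sets that may read other transcripts too, so cht-1 is uncertain to that extent. Among others, the probe sets of chs-2, chil-8 and chil-13 and the brighter ones of cbd-1 and lgx-1 carry the _s_at suffix and share this limit.

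The chitinase gene cht-2 was dim. It read 3.40, 3.76 and 3.53 in RNAi-labelled arrays, against 4.22, 3.92 and 4.05 in controls. Every RNAi-labelled array lay below every control, with RNAi replicate 2 the closest to them, as for cht-1. The log2 difference of -0.50 (95% interval -0.79 to -0.20) was 1.41-fold lower, with a limma unadjusted p of 0.00540 and an adjusted p of 0.993. The pair differences were -0.82, -0.15 and -0.52. Of the 7 pharynx markers 5 had RNAi replicate 2 as their lowest RNAi-labelled array. The brighter probe set of the transcription factor gene pha-4 was lowest in RNAi replicate 1, with 6.502, 6.67 and 6.87 in RNAi-labelled arrays. So were cht-2 and the brighter probe set of cht-1. The dimmer probe sets differed, that of pha-4 being lowest in RNAi replicate 2 (6.43, 6.28 and 6.52) and that of cht-1 in RNAi replicate 3. The part of these markers in the chitinase values was not tested.

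**Figure D2:**
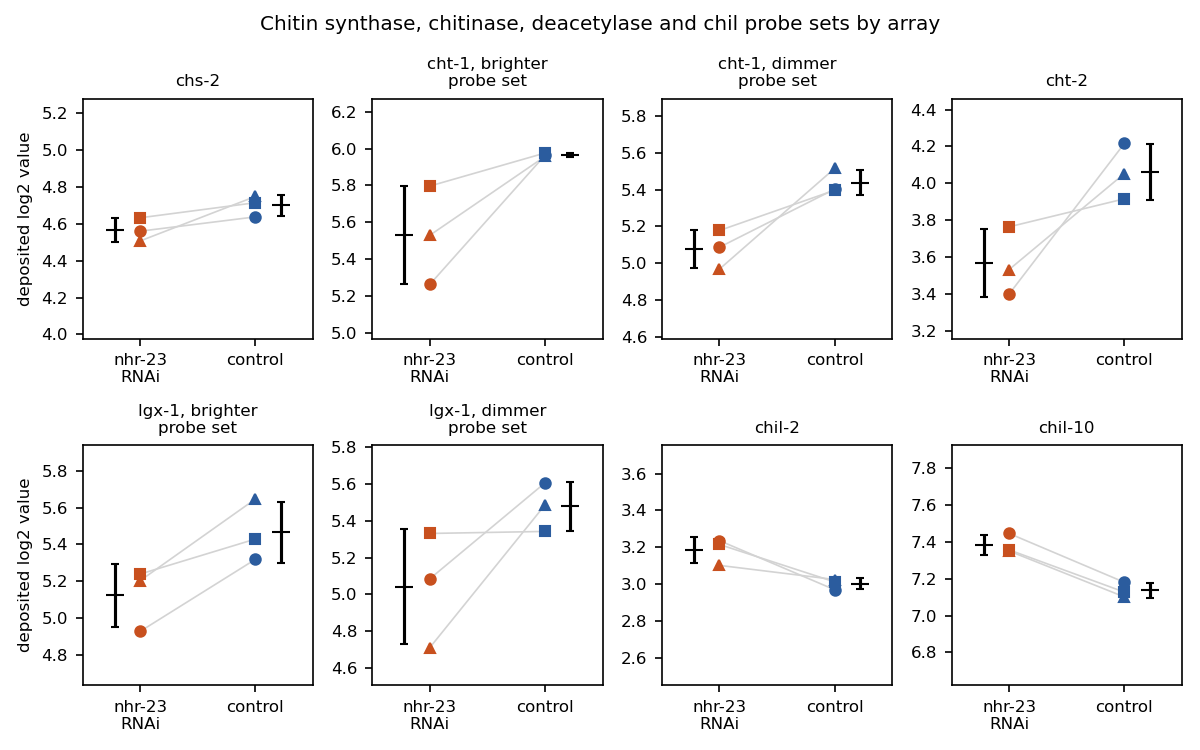
Deposited log2 value on the y axis (each panel spans the same height) for nhr-23 RNAi arrays (orange, left) and control arrays (blue, right), with grey lines joining arrays of the same replicate number (circle 1, square 2, triangle 3) and bars at the mean ± SD of 3 arrays. Both probe sets of cht-1 and of lgx-1, cht-2 and chs-2 lie lower in every RNAi-labelled array, and chil-2 and chil-10 lie higher.

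The other chitinase genes showed no separation. The gene cht-4 read 5.65, 5.997 and 5.096 in RNAi-labelled arrays and 5.62, 5.79 and 5.76 in controls. Its log2 difference of -0.14 (95% interval -0.66 to 0.37) came from RNAi replicate 3, and without that array it was 0.10. The gene cht-5 read 5.40, 5.40 and 5.34 in RNAi-labelled arrays and 5.46, 5.23 and 5.45 in controls, a difference of 0.00 (95% interval -0.21 to 0.21). A second cht-5 probe set, which was dim, differed by -0.06 log2. The gene cht-6 read 5.67, 5.68 and 5.51 in RNAi-labelled arrays and 5.46, 5.68 and 5.76 in controls, a difference of -0.01 (95% interval -0.25 to 0.23). The dim gene cht-3 differed by 0.01 log2 (95% interval -0.32 to 0.33). For cht-5 and cht-6 the intervals leave out a change as large as that measured for cht-1, whereas for cht-4 they do not. The median of the 6 chitinase genes was -0.08 log2, 4 of them being lower.

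Release and transfer of GlcNAc was read from 6 genes. None passed the test. The median was -0.14 log2, and 4 of the 6 were lower. The smallest p belonged to hex-5, a predicted hexosaminidase gene, which read 5.87, 5.21 and 5.54 in RNAi-labelled arrays and 6.37, 6.08 and 5.61 in controls. Its values overlapped, the log2 difference was -0.48 (95% interval -1.03 to 0.08, limma unadjusted p = 0.0811, or 0.0166 with the replicate block), and the pairs gave -0.50, -0.87 and -0.07. The lysosomal hexosaminidase gene hex-1 averaged 8.31 ± 0.13 in RNAi-labelled arrays and 8.45 ± 0.28 in controls (SD, n = 3 each). The O-GlcNAc transferase gene ogt-1 averaged 8.57 ± 0.06 in RNAi-labelled arrays and 8.70 ± 0.15 in controls (SD, n = 3 each).

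**Figure D3:**
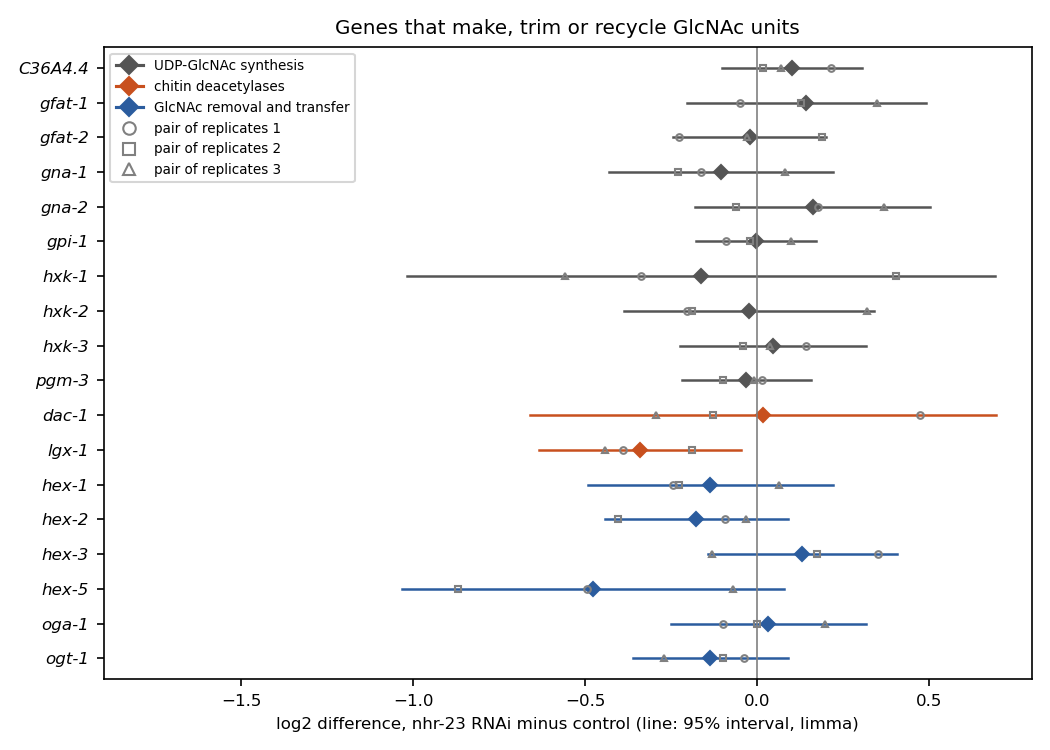
Log2 difference, nhr-23 RNAi minus control, on the x axis for 18 genes. They come from the lists for UDP-GlcNAc synthesis (grey), chitin deacetylases (orange) and GlcNAc removal and transfer (blue). Of the orange genes dac-1 is not known to encode a deacetylase. Lines are 95% intervals from limma, and open symbols are the differences within same-number pairs. The interval of lgx-1 leaves out 0, and that of hex-5 reaches 0.08.

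The chitinase-like genes leaned the other way by small amounts. In the RNAi-labelled arrays 21 of 25 chil genes were higher, or 84.0%, against 55.7% of all genes and 58.4% of dim genes. Their median was 0.09 log2, against 0.02 log2 over all genes and 0.02 log2 over dim genes, and it was 0.056 when control replicate 3 was left out. In all 3 pairs 8 of the 25 were higher, or 32.0%, against 16.8% of all genes, and 1, chil-7, was lower, against 10.7% of all genes. The mean over the 25 was 3.70, 3.70 and 3.66 in RNAi-labelled arrays and 3.66, 3.58 and 3.55 in controls, so the lowest RNAi-labelled array and the highest control met. The sperm and yolk genes, known for later stages, were higher in 23 of 36 cases, or 63.9%, with a median of 0.03 log2, and in 5 of them, or 13.9%, the groups did not overlap on the higher side.

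The largest difference of a chil gene was that of chil-10, which was not dim. It read 7.45, 7.36 and 7.35 in RNAi-labelled arrays, against 7.18, 7.13 and 7.10 in controls. The RNAi-labelled arrays all lay above the controls, and the spread within each group was small (SD 0.05 and 0.04). The log2 difference was 0.25 (95% interval 0.08 to 0.41), 1.19-fold higher, with a limma unadjusted p of 0.00998 and an adjusted p of 0.993. The 3 pairs gave 0.26, 0.23 and 0.25.

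The other chil genes that were not dim were less clear. The gene chil-13 read 5.29, 5.28 and 5.47 in RNAi-labelled arrays and 5.28, 5.01 and 5.14 in controls. Its lowest RNAi-labelled array and its highest control nearly coincided, and the log2 difference was 0.21 (95% interval -0.03 to 0.44, limma unadjusted p = 0.0787). The gene chil-22 read 6.10, 5.66 and 5.97 in RNAi-labelled arrays and 6.02, 6.14 and 5.56 in controls. Its groups overlapped fully, with a difference of 0.00 (95% interval -0.42 to 0.43) and pair differences of 0.08, -0.48 and 0.41.

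In 3 of 22 dim chil genes, or 13.6%, the groups did not overlap, all on the higher side. Of all dim genes 7.69% did not overlap on the higher side, and 10.5% on either side. The gene chil-2 read 3.24, 3.22 and 3.10 in RNAi-labelled arrays, against 2.97, 3.01 and 3.03 in controls, with a log2 difference of 0.18 (95% interval 0.01 to 0.35, limma unadjusted p = 0.0406). With the replicate number as a block its unadjusted p was 0.0798. The gene chil-23 read 3.13, 3.09 and 3.01 in RNAi-labelled arrays, against 2.99, 2.82 and 2.92 in controls, a difference of 0.17 (limma unadjusted p = 0.0731). The gene chil-26 read 2.95, 2.89 and 2.87 in RNAi-labelled arrays, against 2.79, 2.80 and 2.75 in controls, a difference of 0.12 (limma unadjusted p = 0.119). All of these readings lay well below the 5.16 that defines dim genes, where background signal can compress log2 differences.

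Larger but less regular differences were seen in chil-8 and chil-24. The gene chil-8 read 3.93, 3.83 and 3.40 in RNAi-labelled arrays and 3.45, 3.55 and 3.49 in controls. RNAi replicate 3 was the lowest of the 6 arrays while the other RNAi-labelled arrays were the highest, and the log2 difference of 0.22 (95% interval -0.11 to 0.56) was 0.38 when RNAi replicate 3 was left out and 0.12 when RNAi replicate 1 was. The gene chil-24 read 4.29, 4.56 and 4.53 in RNAi-labelled arrays and 4.24, 4.09 and 4.41 in controls, a difference of 0.21 (95% interval -0.06 to 0.49). It was 0.13 without control replicate 2.

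The remaining 17 chil genes were all dim, with readings between 2.34 and 4.58 on single arrays. Of these 13 were higher and 4 lower, with log2 differences between -0.10 and 0.17 and a smallest limma unadjusted p of 0.112. Among them was chil-27, a gene known to be induced on oomycete recognition, which read 3.35, 3.59 and 3.47 in RNAi-labelled arrays and 3.41, 3.21 and 3.35 in controls. Its groups overlapped, with a difference of 0.15 (95% interval -0.08 to 0.37). The gene table annotates chil-20 and chil-28 as pseudogenes. They differed by -0.01 log2 and 0.17 log2, and chil-28 was higher in all 3 pairs. The probe set shared by chil-19 and chil-21 read 3.78, 3.54 and 3.70 in RNAi-labelled arrays and 3.89, 3.47 and 3.46 in controls, a difference of 0.06 log2.

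**Figure D4:**
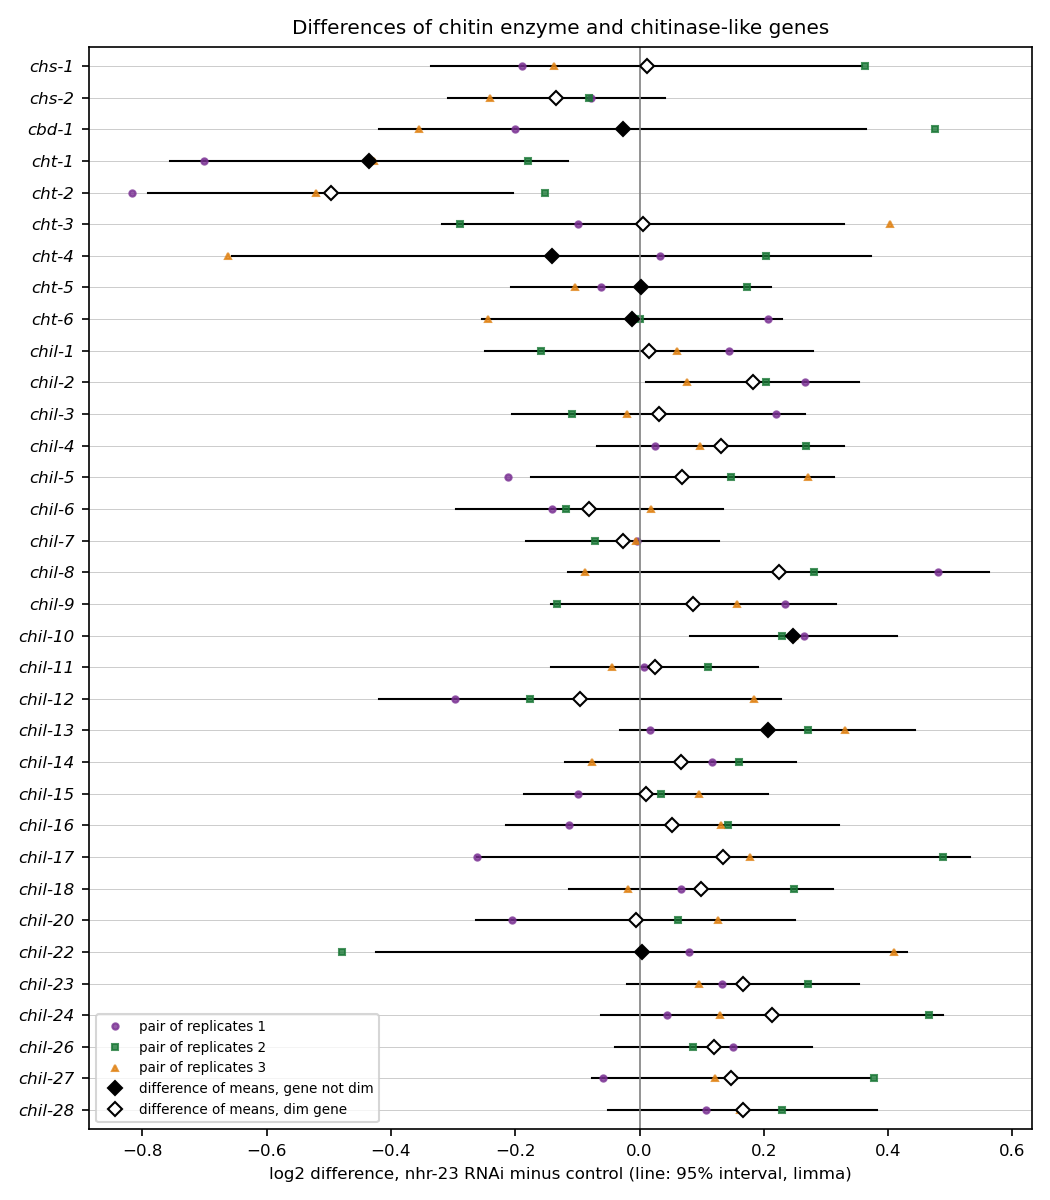
Log2 difference, nhr-23 RNAi minus control, on the x axis for the 34 genes, with the difference of means as a diamond (filled where the gene is not dim, open where it is), the 95% interval from limma as a line and the differences within same-number pairs as coloured symbols. The intervals of cht-1 and cht-2 lie below 0 and those of chil-2 and chil-10 above it.

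Many chil genes lie beside each other in the genome. By their order in WBcel235, with at most 10 other genes between neighbours, 13 chil genes form a run from chil-13 to chil-27, and 9 form a run from chil-9 to chil-2, while 6 stand alone. In the first run 10 genes were measured, of which 9 were higher, with a median of 0.11 log2. In the second run all 9 were measured and dim, of which 7 were higher, with a median of 0.07 log2. Of the 6 that stand alone 5 were higher, with a median of 0.12 log2, and these included chil-10. The runs were not tested against the shares of higher genes given above, 58.4% of dim genes and 55.7% of all genes. Neighbouring chil genes resemble each other in sequence, so a probe set may read more than 1 of them.

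**Figure D5:**
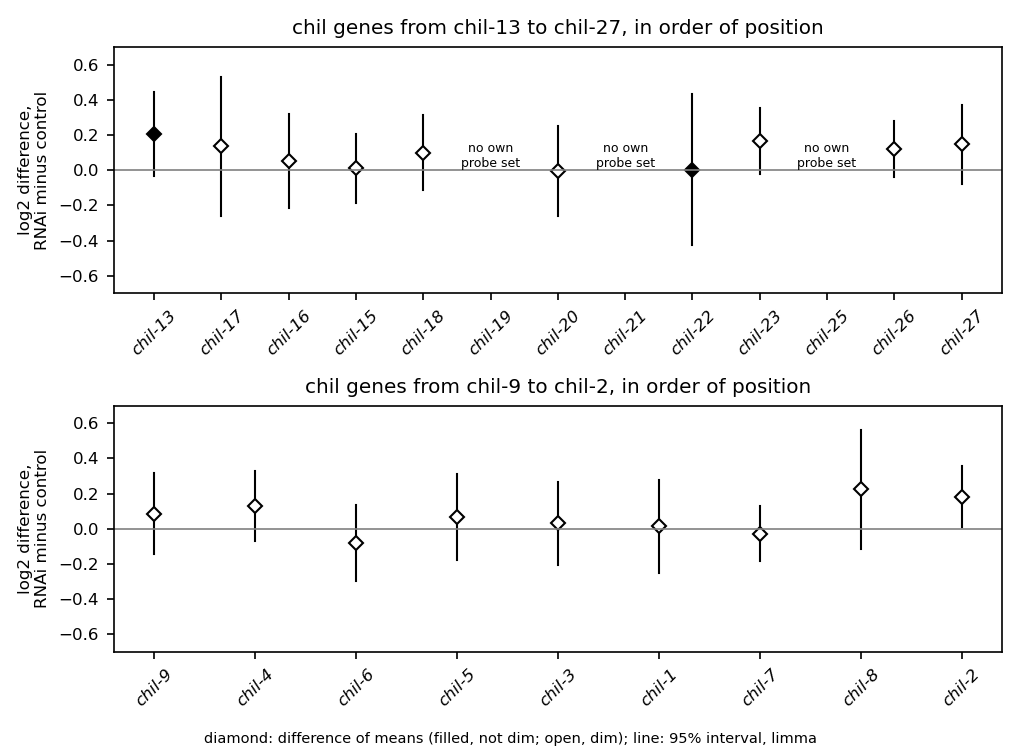
Log2 difference, nhr-23 RNAi minus control, on the y axis for chil genes in their order along the genome on the x axis, in the run from chil-13 to chil-27 (above) and that from chil-9 to chil-2 (below). Diamonds are differences of means (filled where not dim, open where dim) and lines 95% intervals from limma; of all genes shown only the interval of chil-2 leaves out 0.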

How the data were processed

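RNA from whole L2 larvae was measured on 6 single-colour Affymetrix arrays, labelled from 4 ug of total RNA, 3 nhr-23 RNAi and 3 control. The deposited table holds 1 log2 value per probe set and array. The submitters' processing notes list MAS5, RMA and Partek without saying which the authors used for the log2 values, so how background and scale were treated is not known here beyond array medians that nearly coincide. Of 22625 probe sets, 77 array controls were left out. Genes were named from the platform annotation, with symbols taken from the RefSeq table for WBcel235 through Entrez identifiers. No sequences were used.

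Groups were compared over all 22548 probe sets with limma's moderated model (version 3.58.1, R 4.3.3). Group was its single term, tests were 2-sided, no filter or further normalization was applied, and p-values were adjusted by Benjamini-Hochberg with a threshold of 0.05. The code was tested on simulated data. The labels call the samples biological replicates without saying that cultures were separate, so p-values measure the spread between these samples, and the number of arrays limits the precision. Deviations of same-numbered arrays from their group means correlated at 0.58, 0.17 and 0.57 for replicates 1, 2 and 3. The numbers were taken to pair the arrays on this evidence from the values alone, which is weak for replicate 2. Deviations of differently numbered arrays were not compared. Genes named in full were those not dim, those at an unadjusted p under 0.05, those without overlap and the 3 largest differences each way, and from other lists the gene with the smallest p. chs-1, cht-3, chil-20, chil-27, chil-28 and further genes of the other lists were added for their roles or after their values were seen. Alternatives were other scalings, filters, probe set rules and variance priors, the replicate block and leaving out arrays. The genes and lists were chosen with earlier results of these data known.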

Additional observations from a re-analysis of the deposited data

How the results depend on the processing

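No chitin gene passed the adjusted threshold under any alternative run, including array centring, quantile normalization, the replicate block (0 of 34), a filter on dim probe sets, other probe set rules, another variance prior and leaving out arrays. The same held for the 3 chitin pathway lists. Genes at an unadjusted p under 0.05 on the higher side numbered 2, but 1 with quantile normalization, 1 with the replicate block and 1 with dim probe sets left out, and 1 to 3 without 1 array. On the lower side they numbered 2, but 1 with dim probe sets left out, 1 without _s_at and _x_at probe sets, which removes cht-1, and 1 with both replicate 3 arrays left out, where the cht-1 p was 0.0534. Leaving out dim probe sets left 8 genes, 2 of them without overlap, against 8.41% of all genes not dim, and a chil median of 0.21 log2 over 3 genes. The chitinase median ran from -0.20 (without RNAi replicate 2) to -0.025 (without RNAi replicate 3) without 1 array. The chil median was 0.056 when control replicate 3 was left out, 0.13 when control replicate 1 was, and 0.066 with quantile normalization. The log2 differences of cht-1 (-0.57 to -0.30), cht-2 (-0.60 to -0.41) and chil-10 (0.22 to 0.27) kept their sign without any 1 array.

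Values near 0 changed sign. The difference of cht-6 was 0.0054 with array medians subtracted, 0.015 with quantile normalization and 0.10 without both replicate 3 arrays. That of cht-5 was -0.031 with the mean of its probe sets and -0.063 for the probe set with the largest SD. Without both replicate 3 arrays cbd-1 was 0.14, cht-4 was 0.12 and chil-22 was -0.20. The nhr-23 difference also changed sign, although it was not near 0, at -0.49 for the brighter probe set. It was 1.12 with the mean of its probe sets and 2.72 for the one with the largest SD, which averages in or picks the dimmer probe set. Without 1 array the ranges were -0.20 to 0.10 for cbd-1, -0.35 to 0.10 for cht-4, -0.074 to 0.045 for cht-5, -0.10 to 0.050 for cht-6, -0.17 to 0.13 for chil-22 and -0.11 to 0.14 for chs-1. The causes of these changes were not tested.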

Other observations

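Chitin of the eggshell is laid down after the L2 stage, and genes of that process were read as well. Of 9 eggshell protein genes 6 were higher and 3 lower, with a median of 0.02 log2, and none passed the test. The smallest p belonged to cpg-3, a chondroitin proteoglycan gene, which read 5.49, 5.38 and 5.60 in RNAi-labelled arrays, against 5.12, 5.22 and 5.36 in controls (limma unadjusted p = 0.0339). Oocyte markers were higher in 5 of 6 cases with a median of 0.06 log2, among them puf-5, an RNA-binding protein gene, at 6.18 ± 0.06 in RNAi-labelled arrays and 5.93 ± 0.17 in controls (SD, n = 3 each; limma unadjusted p = 0.0460, or 0.0573 with the replicate block). Germline markers were higher in 3 and lower in 3 of 6 cases, and pgl-1, which encodes a P granule component, read 7.81, 7.75 and 7.60 in RNAi-labelled arrays, against 7.58, 7.27 and 7.45 in controls (limma unadjusted p = 0.0299).

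Genes of the responses to oomycetes and intracellular pathogens stood near the median of all genes. Of 8 measured 5 were higher and 3 lower, with a median of 0.02 log2. The receptor-related gene flor-1 read 7.01, 6.30 and 6.86 in RNAi-labelled arrays and 6.82, 6.56 and 6.46 in controls, and its groups overlapped. The dim gene pals-5 had the smallest p, at 2.83 ± 0.07 in RNAi-labelled arrays and 2.72 ± 0.06 in controls (SD, n = 3 each; limma unadjusted p = 0.204). By their brightest probe sets, epidermis markers were higher in 4 and lower in 6 of 10 cases. The smallest p among these was that of lin-26 (log2 difference -0.24, limma unadjusted p = 0.127). A dimmer elt-3 probe set was higher without overlap (log2 difference 0.28, limma unadjusted p = 0.0290, or 0.0241 with the replicate block). The brighter elt-3 probe set differed by 0.23 log2, and its groups overlapped. With the replicate block the cuticle collagen genes dpy-7 and rol-6 of this list were lower at an unadjusted limma p of 0.000226 and 0.0155. None of these passed after adjustment. The gene dpy-7 is also among the molting markers.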
